A study of Mus musculus with 16 samples.

Results

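Genes of hyaluronan, versican and lubricin were followed through tendon injury in 2 mouse strains. They were taken by symbol from the count table, and all 10 members were among its 49568 genes: the hyaluronan synthases Has1, Has2 and Has3, the breakdown genes Hyal1, Hyal2 and Cemip, the receptor Cd44, the hyaluronan-modifying protein gene Tnfaip6, the proteoglycan gene Vcan and the lubricin gene Prg4. RNA-seq was performed on flexor tendon tissue, taken at the injury site, of male mice aged 9 to 11 weeks, and the 16 libraries were split evenly (n = 4) by strain, C57BL/6J (C57) or MRL/MpJ (MRL), and by state, uninjured or 7 days post-injury (dpi). The injury was a cut through 50% of the deep digital flexor tendon of the third hind digit, and the labels name no transgene or drug for either strain. Each library came from a single tendon, from which sheath and surrounding tissue had not been dissected away, so the values are those of a mixed tissue at 1 time point.

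Hyaluronan is a long, unbranched sugar chain that is made at the plasma membrane by the synthases and extruded directly into the matrix. It is cut by hyaluronidases and by CEMIP, bound at the cell surface by CD44, and held in a hydrated pericellular coat by proteoglycans such as versican. TSG-6, the product of Tnfaip6, transfers heavy chains of inter-alpha-inhibitor onto hyaluronan in inflamed or remodelling tissue. In digits the gliding surface of the tendon and its sheath is coated by hyaluronan and by lubricin, the mucin-like product of Prg4.

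The libraries held 12552424 to 23741648 counts, and the 4 injured MRL libraries were deeper than the other 12, at 18524170 to 23741648. Levels are given as CPM, the count of a gene scaled to the size of its library with TMM factors, and 3 counts, used as a floor, corresponded to 0.126 to 0.241 CPM. All 8 tenocyte marker genes were detected in every group, and together they took 2.58 to 8.16% of counts. Uninjured C57 replicate 4 stood apart: 12 epidermis markers took 7.45% of its counts, against at most 0.0779% elsewhere, its tenocyte share was the lowest at 2.58%, and its Spearman correlation with its own group was 0.799 to 0.834. In injured C57 replicate 1, 12 skeletal muscle markers took 6.30% of counts, and its tenocyte share was 2.67%. Injured C57 replicate 2 also held muscle markers, at 0.213% against at most 0.00176% in the other 14 libraries, and it was kept in the fits without the 2 libraries that stood apart. The C57 response of each member and the C57 calls of the related gene lists are given with and without these 2 libraries. The 10 macrophage markers took 0.0664 to 0.177% of counts in the 8 uninjured libraries, 0.465 to 0.929% in injured C57 and 0.331 to 0.649% in injured MRL. In each strain all 10 markers were higher after injury and 5 passed the test, while without these 2 libraries 10 passed in C57, and none of the 10 was undetected in any group.

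Tnfaip6 was the member with the largest shift after injury, and it rose in MRL tendon. Its level in uninjured C57 tendon was 1.48, 0.130, 0.926 and 0 CPM in replicates 1 to 4, and in uninjured MRL tendon it was 0.398, 0.433, 1.55 and 1.45 CPM. At 7 dpi it was 7.56, 102, 30.9 and 7.17 CPM in C57 and 10.04, 31.7, 9.12 and 68.1 CPM in MRL. Every injured library was therefore above every uninjured one in both strains, and within each injured group the highest library was far above the lowest. In MRL the log2 fold change was 4.96 (SE 0.79; edgeR quasi-likelihood test, adjusted p = 0.00466), a 31.1-fold rise with a 95% interval of 9.24 to 105. It kept the call in all 8 fits that left out 1 MRL library, with log2 fold changes of 4.14 to 5.29. A gene was called when its adjusted p was under 0.05 and its log2 fold change was beyond 1 in either direction. In C57 the log2 fold change of Tnfaip6 was 5.80 (SE 1.32, 95% interval 2.81 to 8.80), and with an adjusted p of 0.0774 in the same test it was not called. The highest C57 value was that of replicate 2, whose muscle share was 0.213%, and without that library the log2 fold change was 4.57. Over the 8 fits that left out 1 C57 library it was called in 0, with adjusted p between 0.0762 and 0.239. It was called when the spread was estimated over all 16 libraries (5.86, adjusted p = 0.0195), a setting that called 2.30% of genes. It was also called by edgeR without the 2 C57 libraries that stood apart (5.78, adjusted p = 0.0357), where 5.97% of genes were called, and by DESeq2 (5.88, adjusted p = 5.83e-06), which called 5.48%. The responses of the 2 strains differed by a log2 fold change of -0.91 (MRL minus C57, 95% interval -4.03 to 2.20, adjusted p = 0.86), so neither a larger nor a smaller response in MRL was shown. In bulk tissue, more cells that express a gene and more RNA per cell cannot be told apart, and the part of the macrophage share in the Tnfaip6 values was not tested. In injured C57 replicates 1 to 4 the macrophage share was 0.465, 0.875, 0.929 and 0.787%, and in injured MRL replicates 1 to 4 it was 0.649, 0.331, 0.428 and 0.574%. The 2 C57 libraries with the highest shares had the 2 highest C57 values of Tnfaip6, and in MRL the library with the highest share had the second lowest of the 4 values.

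**Figure D1:**
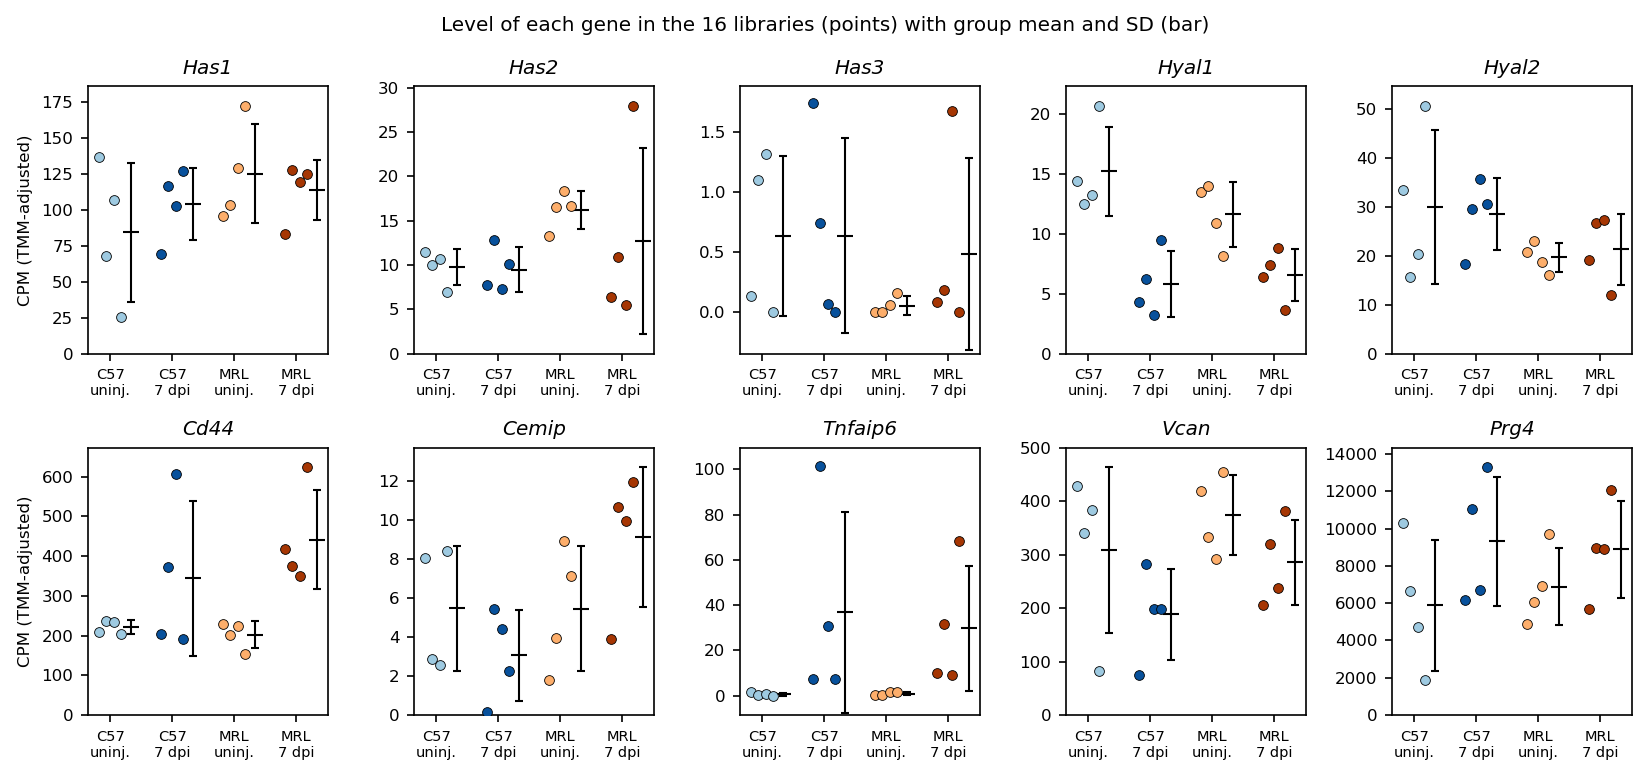
Level of each of the 10 genes in the 16 libraries, in TMM-adjusted CPM on linear axes that differ between panels. Points are libraries in replicate order, and the bar beside each group is its mean with the SD (n = 4). For Tnfaip6 all injured points are above all uninjured ones in both strains (7.17 to 102 against 0 to 1.48 CPM in C57, and 9.12 to 68.1 against 0.398 to 1.55 CPM in MRL).

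Tnfaip6 is at chr2:52038009-52056686 on the plus strand of GRCm38, and its promoter is shown because it was the member with the largest response. Its sequence and those of Cd44, the other member called in MRL, and of Has1, the most abundant synthase, are printed 5′ to 3′ from RefSeq on GRCm38.p6, and only up to the first base that RefSeq or GENCODE places in the transcript. Windows of 300 bases around the start were found for 7 of the 10 members, without Has2, Has3 and Prg4. They were searched on both strands for AP-1 (TGANTCA), the cAMP response element (TGACGTCA), the TATA box (TATAAA) and NF-kappaB. These were held by 7.81, 1.79, 13.6 and 8.46%, respectively, of all 32851 promoter windows. Capitals mark the matches in the printed sequences.
Tnfaip6, chr2:52037863-52038008, plus strand, AP-1 match: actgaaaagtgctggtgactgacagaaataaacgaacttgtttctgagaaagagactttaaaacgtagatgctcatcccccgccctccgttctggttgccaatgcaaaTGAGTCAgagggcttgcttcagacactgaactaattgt
Cd44, chr2:102901666-102901915, minus strand, no match in capitals: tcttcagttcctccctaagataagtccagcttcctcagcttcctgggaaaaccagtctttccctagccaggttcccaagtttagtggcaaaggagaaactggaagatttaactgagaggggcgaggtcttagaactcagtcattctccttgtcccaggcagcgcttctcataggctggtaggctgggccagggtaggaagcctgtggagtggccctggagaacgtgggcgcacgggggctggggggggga
Has1, chr17:17855206-17855438, minus strand, cAMP response element match: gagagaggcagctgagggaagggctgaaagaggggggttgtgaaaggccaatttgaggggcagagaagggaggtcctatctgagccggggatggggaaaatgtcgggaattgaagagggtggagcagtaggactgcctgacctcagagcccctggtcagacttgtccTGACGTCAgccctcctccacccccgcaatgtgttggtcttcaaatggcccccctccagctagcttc
The AP-1 match of Tnfaip6 lay at bases -142 to -136 from the RefSeq start, and the match of Has1 at -83 to -76. Cemip held a TATA box at -29 to -24 and Hyal2 an NF-kappaB match at -238 to -229, read on both strands at the same bases. The Hyal2 window lies within the span that GENCODE gives to Hyal2. The windows of Cd44, Hyal1 and Vcan held none of the 4 motifs. These are matches of letters only, and no binding was measured.

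Of the 10 members, 0 were called in the C57 injury response, where 1.07% of the 14424 genes tested were called. In the MRL response 2 of the 9 members tested were called, Cd44 and Tnfaip6, where 7.41% of the 14274 genes tested were called. Genes called as higher at 7 dpi made up 5.25% of the genes tested. Has3 did not reach the count filter in that comparison. The median log2 fold change of the members was -0.03 in C57 and 0.12 in MRL, beside -0.05 and -0.03 over all genes tested. In C57 the uninjured and injured libraries did not overlap for 2 members, Tnfaip6 and Hyal1, where 11.6% of genes tested had groups that did not overlap. In MRL this held for Tnfaip6 and Cd44, where the share among all genes was 22.9%.

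**Figure D2:**
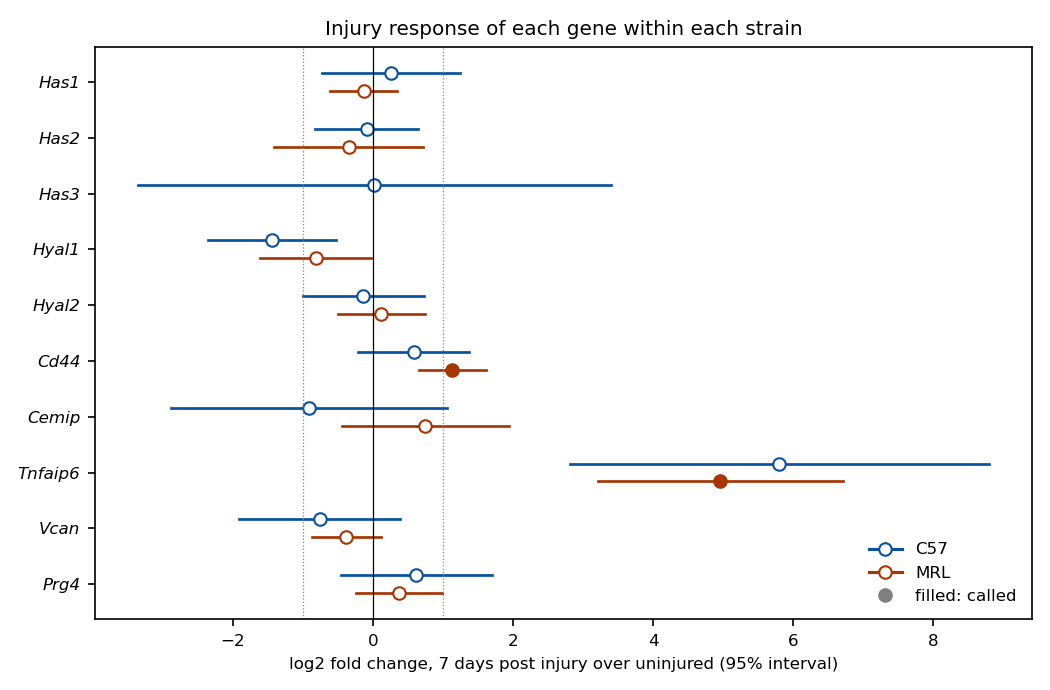
Log2 fold change of each gene at 7 dpi over uninjured tendon in C57 (blue) and MRL (brown), with 95% intervals. Filled points passed both thresholds, dotted lines mark a log2 fold change of 1 in each direction, and Has3 was tested in C57 alone. Only Cd44 (1.14) and Tnfaip6 (4.96) in MRL are filled.

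Has1 supplied most of the synthase counts in every library, and injury did not shift it beyond the spread between libraries. Has1 (chr17:17843323-17855205, minus strand) read 137, 68.3, 107 and 25.3 CPM in uninjured C57, 69.6, 117, 103 and 127 CPM in injured C57, 96.0, 104, 129 and 173 CPM in uninjured MRL, and 83.0, 128, 120 and 125 CPM in injured MRL. The groups overlapped in every comparison, and the lowest value was that of uninjured C57 replicate 4. The log2 fold change was 0.26 in C57 (SE 0.43, 95% interval -0.72 to 1.24) and -0.13 in MRL (SE 0.21, 95% interval -0.61 to 0.34), so a change beyond 2.36-fold up in C57 or 1.27-fold up in MRL was outside these intervals. Without uninjured C57 replicate 4 the C57 value turned to -0.04, and without both C57 libraries that stood apart it was 0.15. Of the summed counts of the 3 synthases, Has1 took 78.6 to 94.4% over the 16 libraries, and the lowest shares were those of uninjured C57 replicate 4 (78.6%) and injured MRL replicate 4 (81.7%). On a scale per kilobase of exon, which allows genes to be compared, Has1 stood at 18.7 ± 10.7, 23.0 ± 5.57, 27.7 ± 7.65 and 25.2 ± 4.62 CPM per kb (SD, n = 4) in C57 before and after injury and in MRL before and after injury. Has2 stood at 2.31 ± 0.476, 2.24 ± 0.595, 3.82 ± 0.505 and 2.99 ± 2.47 CPM per kb in the same order.

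Has2, the synthase gene required for heart development in mouse embryos, separated the strains before injury without passing the test. Has2 (chr15:56665627-56694539, minus strand) read 11.5, 10.04, 10.7 and 6.89 CPM in uninjured C57 and 13.3, 16.5, 18.4 and 16.6 CPM in uninjured MRL. All 4 MRL libraries were above all 4 C57 libraries, and Has2 was the only member of the 9 tested for which the uninjured groups did not overlap, where 5.04% of genes tested did so. The log2 difference was 0.70 (MRL over C57, SE 0.26, 95% interval 0.12 to 1.28), with an unadjusted p of 0.023 and an adjusted p of 0.621 in edgeR. It was 0.58 without uninjured C57 replicate 4, and 0.57 without the libraries labelled replicate 4 of both uninjured groups (adjusted p = 0.291). At 7 dpi the values were 7.68, 12.8, 7.33 and 10.1 CPM in C57 and 6.39, 10.9, 5.42 and 27.9 CPM in MRL. The C57 log2 fold change was -0.09, both with all libraries and without the 2 that stood apart. The injured strains overlapped, and injured MRL replicate 4 was above the other 3 libraries of its group by more than 2-fold. Without that library the MRL log2 fold change went from -0.34 to -1.09 (adjusted p = 0.0646). Reads of Has2 and of its antisense neighbour Has2os, which had 16 to 286 counts, could not be separated with certainty, because the strand setting of the counting is not given in the sources used here.

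Has3 was at or near the floor. It had 0 to 17 counts in uninjured C57, 0 to 29 in injured C57, 0 to 2 in uninjured MRL and 0 to 38 in injured MRL, and 1 or more libraries of every group held 0 counts. Its C57 log2 fold change of 0.02 had an interval of -3.36 to 3.40, which leaves its response unresolved at this depth, and it was -1.61 without the 2 C57 libraries that stood apart. Has3 shares bases with the overlapping gene Chtf8.

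**Figure D3:**
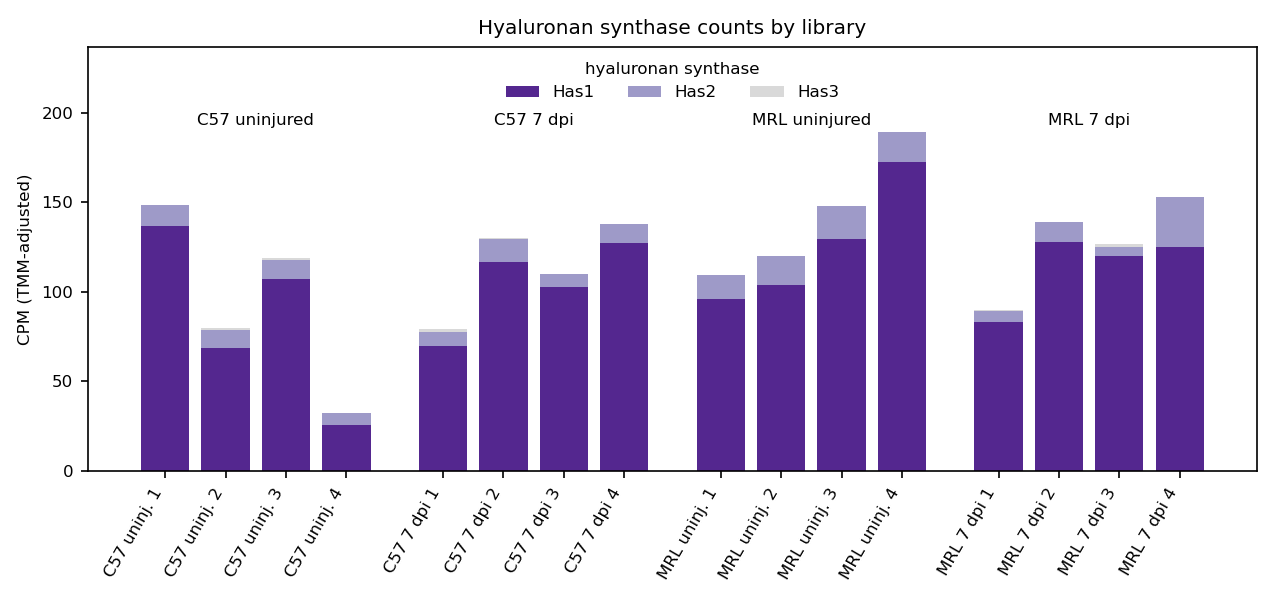
Stacked CPM of Has1, Has2 and Has3 in each of the 16 libraries, grouped by strain and injury, from 0 on a linear axis. Has1 makes up 78.6 to 94.4% of the synthase counts of each library, and the summed level is lowest in uninjured C57 replicate 4 (32.2 CPM).

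Hyal1, a lysosomal hyaluronidase, was lower at 7 dpi in C57 by the point estimate, but was not called by edgeR. Hyal1 (chr9:107576927-107581710, plus strand) read 14.4, 12.5, 13.3 and 20.7 CPM in uninjured C57 and 4.26, 6.22, 3.24 and 9.51 CPM at 7 dpi, and the highest injured library was below the lowest uninjured one. The C57 log2 fold change was -1.44 (SE 0.41, 95% interval -2.36 to -0.53), with an unadjusted p of 0.00603 and an adjusted p of 0.149. DESeq2 called it in C57 (-1.39, adjusted p = 0.0198). Without the 2 C57 libraries that stood apart the value was -1.08 (adjusted p = 0.157). In MRL the values were 13.5, 14.0, 10.9 and 8.12 CPM before injury and 6.43, 7.39, 8.82 and 3.67 CPM at 7 dpi. There the ranges overlapped by 1 library on each side, the log2 fold change was -0.82 (SE 0.36), and the adjusted p was 0.165. The difference between the 2 responses was 0.58 (MRL minus C57, 95% interval -0.56 to 1.71, adjusted p = 0.72). Hyal3 lies partly over Hyal1 and had 0 to 65 counts, with the 65 in uninjured C57 replicate 4, so part of the assignment between these genes is uncertain.

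Hyal2, which encodes a hyaluronidase anchored at the cell surface, lay between 12.0 and 50.7 CPM over the 16 libraries. Its group means were 30.0 ± 15.7, 28.5 ± 7.39, 19.7 ± 2.92 and 21.3 ± 7.27 CPM (SD, n = 4) in C57 before and after injury and in MRL before and after injury. Its log2 fold change after injury was -0.14 (95% interval -1.004 to 0.73) in C57 and 0.12 (95% interval -0.50 to 0.74) in MRL. The highest value of Hyal2, like that of Hyal1, was in uninjured C57 replicate 4, and without that library the C57 value turned to 0.26, or to 0.47 without both libraries that stood apart.

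Cemip, whose product binds hyaluronan and takes part in its depolymerisation, was low and variable. Cemip (chr7:83932857-84086502, minus strand) read 8.06, 2.85, 2.55 and 8.43 CPM in uninjured C57, 0.180, 5.42, 4.41 and 2.27 CPM in injured C57, 1.79, 3.97, 8.95 and 7.15 CPM in uninjured MRL, and 3.91, 10.7, 9.96 and 12.0 CPM in injured MRL. The lowest value, 3 counts, was in injured C57 replicate 1, the library with the high muscle share. The C57 log2 fold change was -0.91 (adjusted p = 0.672), and -0.15 without the 2 C57 libraries that stood apart, and in MRL it was 0.75 (adjusted p = 0.402). In injured tendon 3 of the 4 MRL libraries were above every C57 library. The log2 difference between injured MRL and injured C57 was 1.55 (SE 0.76, 95% interval -0.15 to 3.25, adjusted p = 0.277), and it was 1.16 without injured C57 replicate 1. The interaction of strain with injury, which asks whether the 2 responses differ, was 1.59 (95% interval -0.67 to 3.84, adjusted p = 0.581), and neither difference passed the test.

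Cd44, the major cell-surface receptor for hyaluronan, rose in MRL tendon. Cd44 (chr2:102811141-102901665, minus strand) read 228, 201, 225 and 154 CPM in uninjured MRL and 417, 376, 349 and 624 CPM at 7 dpi, and every injured library was above every uninjured one. The log2 fold change was 1.14 (SE 0.22, adjusted p = 0.00964), a 2.20-fold rise with a 95% interval of 1.58 to 3.06. Without injured MRL replicate 4 it was 0.92 (adjusted p = 0.0082), under the fold limit, so 1 library decided the call but not the test. In C57 the values were 210, 237, 235 and 203 CPM before injury and 203, 373, 607 and 192 CPM at 7 dpi. Here 2 injured libraries were above all uninjured ones and 2 were not, and the log2 fold change was 0.58 (SE 0.35, 95% interval -0.21 to 1.37, adjusted p = 0.464), or 0.78 (adjusted p = 0.227) without the 2 C57 libraries that stood apart. Without injured C57 replicate 3, the library at 607 CPM, it was 0.20 (adjusted p = 0.805). The difference between the 2 responses was 0.49 (MRL minus C57, 95% interval -0.42 to 1.40, adjusted p = 0.698). On the scale per kilobase, Cd44 stood at 32.7 ± 2.55 and 29.8 ± 5.07 CPM per kb in uninjured C57 and MRL and at 50.7 ± 28.7 and 65.1 ± 18.4 CPM per kb in the injured groups (SD, n = 4). Macrophages also carry CD44. The highest C57 value, in injured replicate 3, was found with the highest macrophage share (0.929%), while injured C57 replicate 4 had 192 CPM of Cd44 at a share of 0.787%. The part of the macrophage share in the Cd44 values was not tested.

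**Figure D4:**
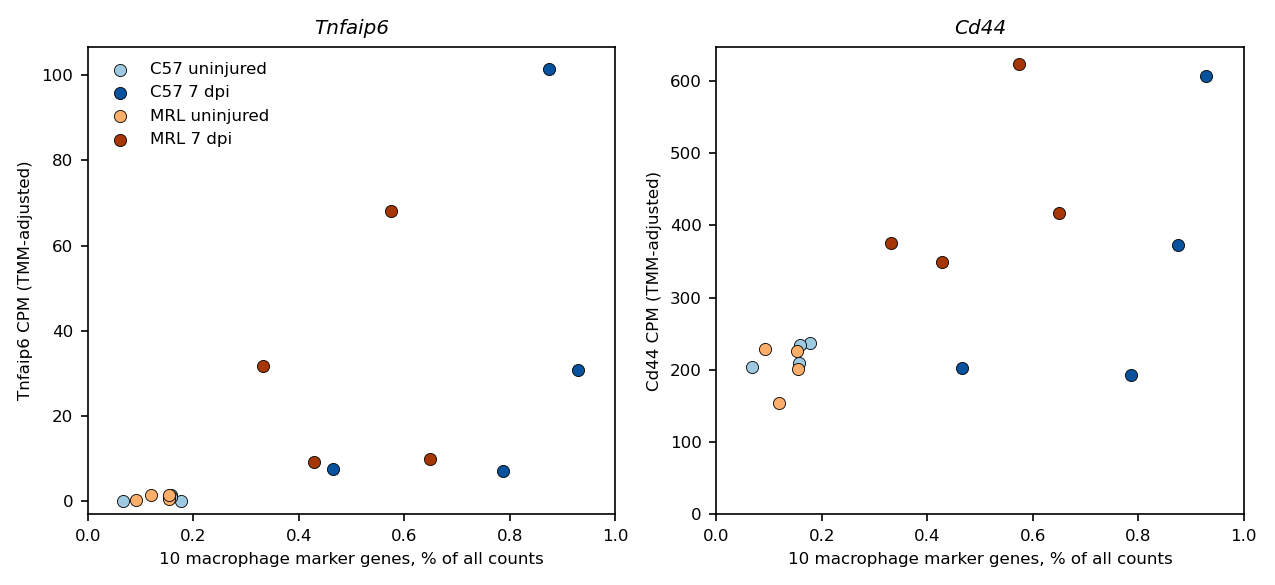
TMM-adjusted CPM of Tnfaip6 (left) and Cd44 (right) against the share of all counts taken by 10 macrophage marker genes, 1 point per library, coloured by group. The uninjured libraries lie at shares of 0.0664 to 0.177% and the injured ones at 0.331 to 0.929%, and the injured C57 point at 0.787% is among the lowest injured points in both panels (7.17 CPM of Tnfaip6 and 192 CPM of Cd44).

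Vcan, the gene of the large chondroitin sulphate proteoglycan that binds hyaluronan through its N-terminal domain, was lower at 7 dpi in both strains by its point estimates and was not called. Vcan (chr13:89655312-89742509, minus strand) read 429, 341, 383 and 82.2 CPM in uninjured C57, 75.6, 283, 198 and 198 CPM in injured C57, 419, 333, 291 and 454 CPM in uninjured MRL, and 205, 320, 238 and 381 CPM in injured MRL. The 2 lowest values of all 16 were in the 2 libraries that stood apart. The log2 fold change was -0.76 in C57 (SE 0.51, 95% interval -1.91 to 0.39, adjusted p = 0.519) and -0.38 in MRL (SE 0.22, 95% interval -0.88 to 0.11, adjusted p = 0.296). The C57 value was -1.07 without uninjured C57 replicate 4 (adjusted p = 0.11) and -0.46 without injured C57 replicate 1 (adjusted p = 0.757). Without both it was -0.76 and its adjusted p was 0.0268, short of the fold limit. With these left out, the 3 uninjured C57 libraries (341 to 429 CPM) were all above the 3 injured ones (198 to 283 CPM). The share of all genes that separate in this way was not computed for 3 libraries a group, so nothing is drawn from it. Injured MRL was above injured C57 by a log2 difference of 0.57 (95% interval -0.20 to 1.35, adjusted p = 0.374).

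Prg4 was by far the most abundant member and was among the most abundant genes of the tendon. Prg4 (chr1:150449412-150466165, minus strand) read 10276, 6639, 4723 and 1868 CPM in uninjured C57, 6158, 11071, 6719 and 13281 CPM in injured C57, 4886, 6066, 6893 and 9696 CPM in uninjured MRL, and 5661, 8949, 8897 and 12050 CPM in injured MRL. It took 0.164 to 1.45% of all counts, and its rank among all genes by count was 3 to 61. The last rank was that of uninjured C57 replicate 4, and over the other 15 libraries Prg4 ranked 22 or better. Every pair of groups overlapped. The log2 fold change was 0.62 in C57 (SE 0.48, 95% interval -0.46 to 1.70, adjusted p = 0.581) and 0.38 in MRL (SE 0.28, 95% interval -0.24 to 0.99, adjusted p = 0.416). The C57 value was 0.33 without uninjured C57 replicate 4, 1.03 without uninjured C57 replicate 1 and 0.53 without both C57 libraries that stood apart. Per kilobase, Prg4 stood at 1373 ± 824 and 1609 ± 478 CPM per kb in uninjured C57 and MRL (SD, n = 4). Tpr lies partly over Prg4, but its 2287 to 4141 counts were few beside those of Prg4.

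Between the strains, 0 members were called in any test. For the interaction of strain with injury, 0% of 15947 genes were called, with a smallest adjusted p of 0.293, while 1939 genes had an unadjusted p under 0.05, none of them a member, and DESeq2 called 212 genes. Between uninjured strains 0% of 14055 genes were called, with 1106 at an unadjusted p under 0.05 (Has2 was the only member) and 104 called by DESeq2. Between injured strains 3.43% of 14626 genes were called, but none of the 9 members tested, and 0 members had groups that did not overlap, beside 15.8% of genes. The widest interval there was that of Tnfaip6, with a log2 difference of -0.34 (95% interval -2.51 to 1.84).

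Over the 16 libraries, the levels of some members ran together. Prg4 and Has1 had a Pearson correlation of log2 CPM of 0.84, and Tnfaip6 and Hyal1 one of -0.84. These describe 16 libraries that share strain and injury, and without uninjured C57 replicate 4, in which both Prg4 and Has1 were lowest, they were 0.61 and -0.80 over 15 libraries. The genes whose pattern was most like that of Tnfaip6, among the other 15946 genes, were Fn1 (0.93), which encodes fibronectin, Csgalnact1 (0.93), which encodes an enzyme that starts chondroitin sulphate chains, and Ctsh (0.93), which encodes a lysosomal protease. For Vcan they were Creb3l2 (0.94), Odf3l1 (0.93) and Sp1 (0.92), for Cd44 they were F7 (0.90), Myh13 (0.90) and Pitpna (0.89), and for Prg4 they were Dnaja1 (0.91), Tmem5 (0.90) and Serpine2 (0.89), which had 0.82, 0.77 and 0.79 without uninjured C57 replicate 4. For Hyal1 they were Proser2 (0.90), Unc45a (0.89) and Mtif3 (0.89). The 3 most like Has1, Parp11, Prr3 and Ift74, had 0.90 to 0.92 over all libraries and 0.64 to 0.71 without uninjured C57 replicate 4. For Has2, Has3, Hyal2 and Cemip, the closest genes were Gm9929 (0.89), B330016D10Rik (0.80), Trim28 (0.88) and Saysd1 (0.84), respectively.

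Genes around the members in the same pathways were read from lists. In the C57 response 1 of the 53 genes tested in these 8 lists was called (1.89%, beside 1.07% of all genes), and in the MRL response 14 of 55 were (25.5%, beside 7.41%). Without the 2 C57 libraries that stood apart, 8 of 54 were called in C57 (14.8%, beside 5.97%). The lists were chosen with earlier results of these data known, so these shares are a description. Of the other hyaluronan receptors, 6 were tested in each strain. In MRL, Hmmr (log2 fold change 7.10, SE 0.83), which encodes a hyaluronan-binding protein that also works on the mitotic spindle, Layn (1.997, SE 0.32), which encodes layilin, and Tlr2 (1.195, SE 0.27), a receptor of innate immunity, rose, and Lyve1 (-1.19, SE 0.32), the receptor of lymphatic vessels and some macrophages, fell. Their adjusted p-values in edgeR were 0.00133, 0.00502, 0.0197 and 0.0421. The median of the list was 1.03 in MRL and 1.22 in C57, and in C57 none of the 6 was called. Without the 2 C57 libraries that stood apart, Layn (1.62, adjusted p = 0.0207) and Stab1 (2.85, adjusted p = 0.0012), a scavenger receptor gene of macrophages and sinusoidal endothelium that is named after its value was seen, were called in C57 too. Hmmr had 0 to 9 counts in uninjured MRL and 267 to 1361 after injury, but in C57 it already had 254 counts in uninjured replicate 4, where the other 3 uninjured libraries had 0 to 14. Its C57 log2 fold change was 1.72 (adjusted p = 0.689), and 5.72 (adjusted p = 0.0979) without the 2 libraries that stood apart.

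Among the enzymes that break down hyaluronan or its fragments, Gusb, which encodes lysosomal beta-glucuronidase, rose in MRL (1.22, SE 0.19, adjusted p = 0.00409) and had 0.99 in C57 (adjusted p = 0.0586), or 1.03 (adjusted p = 0.00292, called) without the 2 libraries that stood apart. The other 4 tested in MRL and the other 3 tested in C57 were not called. Of the 7 genes that supply hyaluronan precursors, 6 had positive values in each strain, with medians of 0.80 in C57 and 0.41 in MRL, and none was called. Without the 2 C57 libraries that stood apart none was called in C57 either. There Ugp2, Gfpt2, Uap1 and Gnpnat1, named after their values were seen, had edgeR adjusted p-values of 0.00762, 0.0107, 0.0148 and 0.0427. Their log2 fold changes of 0.72 to 0.99 fell short of the fold limit. The remaining Ugdh, Gfpt1 and Pgm3 had edgeR adjusted p-values of 0.078 or more. Of the inter-alpha-inhibitor chains and pentraxin 3, which act with TSG-6 on hyaluronan, 3 of 7 were tested in each strain and none was called.

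Among the proteases and partners of versican, Tnc, which encodes tenascin-C, rose in MRL (6.67, SE 0.66, adjusted p = 0.000876), as did Fbn1, which encodes fibrillin-1 (1.39, SE 0.19, adjusted p = 0.0025). In C57 these had 4.83 and 1.83 and were not called (adjusted p = 0.175 and 0.0866). Fbln1, which encodes fibulin-1, fell in C57 (-1.996, SE 0.26, adjusted p = 0.0148) and had -1.41 in MRL (adjusted p = 0.0812). Without the 2 C57 libraries that stood apart, Fbn1 (1.79, adjusted p = 0.0081) and Fbln1 (-1.76, adjusted p = 0.00151) were called in C57, as was Adamts15 (3.05, adjusted p = 0.0389), named after its value was seen, and Tnc was not (4.70, adjusted p = 0.103). Of the 10 genes of this list tested in each strain, 7 had positive values in C57 and 3 in MRL, with medians of 0.98 and -0.11. Of the 15 genes of chondroitin sulphate synthesis, 2 rose and 1 fell in MRL and none was called in C57, with medians of 0.03 and -0.17. Csgalnact1 rose by 2.30 on the log2 scale (adjusted p = 0.00819), Chsy1, a chain polymerase gene, by 1.42 (adjusted p = 0.0372), and Chst15, a sulphotransferase gene, fell by 1.19 (adjusted p = 0.0309). In C57 Csgalnact1 had 2.88 (adjusted p = 0.0578), and it was called without the 2 libraries that stood apart (2.95, adjusted p = 0.016).

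Acan, which encodes aggrecan, another proteoglycan that binds hyaluronan, rose in MRL (1.91, SE 0.52, adjusted p = 0.0421) and was the only gene called of the 4 hyalectans and link proteins tested there. In injured tendon, where 9 of the 55 genes tested in the 8 lists were called between the strains (16.4%, beside 3.43% of all genes), 3 of 3 genes tested in this list were higher in MRL than in C57. They were Acan (3.78, adjusted p = 0.0272) and the link protein genes Hapln1 (3.57, adjusted p = 0.00666) and Hapln3 (4.49, adjusted p = 0.0313), the last 2 named after their values were seen. Between uninjured strains these 3 genes were also higher in MRL, by 2.01, 1.13 and 2.36 respectively, and none was called. Acan counts were 67 to 350 in injured C57 and 1145 to 6425 in injured MRL, but they were also higher in uninjured MRL (476 to 978) than in uninjured C57 (120 to 237). Without the 2 C57 libraries that stood apart, Hapln1 was also called in the C57 response (-1.05, adjusted p = 0.037). The interaction was not called for any gene of this list. Chondrocyte markers, among which Acan is counted, stood beside these values: between injured strains 4 of the 6 tested were higher in MRL and 1, Acan, was called, with Col2a1 at 4.05 (adjusted p = 0.0771), Sox9 at 1.38 and Comp at 1.06, and between uninjured strains 5 of 6 were higher in MRL and none was called. The 7 chondrocyte markers together took 0.706 to 1.65% of counts in injured C57, 0.913 to 2.14% in injured MRL, 0.967 to 3.12% in uninjured C57 and 2.40 to 3.15% in uninjured MRL, and of the defining markers only Matn3 was at 0 throughout a group, uninjured C57. All 8 tenocyte markers were also higher in injured MRL than in injured C57, with Scx called (1.18, adjusted p = 0.0162), and took 5.53 to 8.16% of counts against 2.67 to 5.13%. Between uninjured strains all 8 were higher in MRL as well and none was called, at 5.38 to 7.18% against 2.58 to 5.62%, and no tenocyte marker was at 0 throughout a group. The part of either marker list in the differences of Acan, Hapln1 and Hapln3 was not tested. Also named after their values were seen, the further list genes called between injured strains were Tlr2 (1.13) and Chsy3 (1.95), higher in MRL, and Lyve1 (-2.27), Ugp2 (-1.15), Col22a1 (-1.92) and Tspan15 (-1.96), lower in MRL. Beside the lower Lyve1, all 8 endothelium markers were lower in injured MRL (median -2.95, 3 called) and took 0.000152 to 0.00287% of counts there against 0.0122 to 0.022% in injured C57, and none was at 0 throughout a group. Between uninjured strains 7 of the 8 were lower in MRL (median -1.245, none called), at 0.000245 to 0.00763% against 0.00142 to 0.0112%. All 10 macrophage markers were lower in injured MRL too (median -0.97, 4 called), and between uninjured strains 5 of the 10 were lower in MRL. The part of these markers in the value of Lyve1 was not tested.

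The genes of synovial lining fibroblasts, the cells that make lubricin at gliding surfaces, fell in part in MRL. Of 5 tested, 3 fell: Clic5 (-1.57), Cd55 (-1.40) and Tspan15 (-1.14), with adjusted p-values of 0.0456, 0.0411 and 0.0484, respectively. The median was -1.40 in MRL and 0.27 in C57, where none was called, while Prg4 had 0.38 and 0.62. Injured MRL replicate 4 had the lowest value of Clic5, Cd55 and Tspan15 (11.2, 23.4 and 9.13 CPM) and the highest value of Prg4 in its group (12050 CPM).

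**Figure D5:**
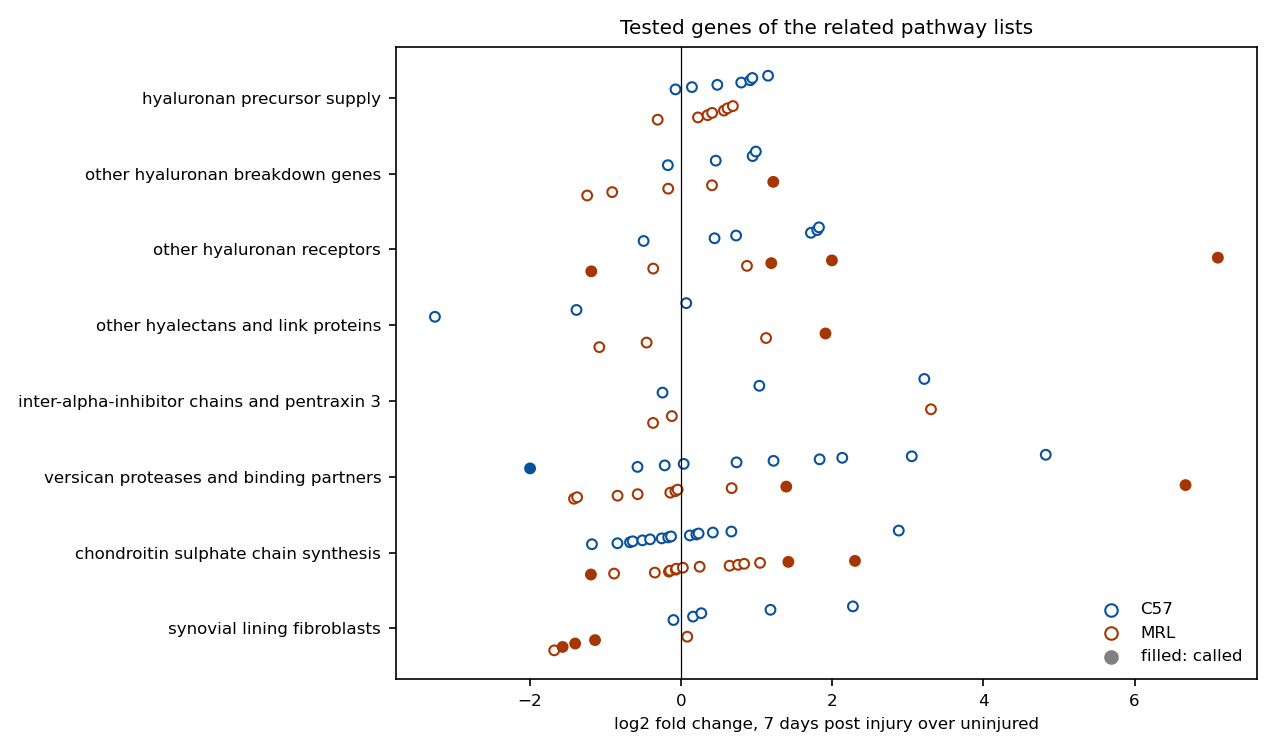
Log2 fold change at 7 dpi over uninjured tendon of each tested gene of the 8 related lists, in C57 (blue, upper row of each list) and MRL (brown, lower row). Filled points passed both thresholds: 1 gene in C57 (Fbln1, -1.996) and 14 in MRL, of which Hmmr (7.10) and Tnc (6.67) lie farthest to the right.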

How the data were processed

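The authors ran Trimmomatic 0.36 on 100 nt single-end reads, aligned them to GRCm38.p5 with STAR 2.5.2b and deposited raw read counts per gene symbol, and the submitters' processing notes also name Subread 1.5.0p3 and DESeq2 1.14.1. Which annotation was counted, and with which strand option, is not given in the sources used here. The labels and the study's methods describe different library kits. Counts were tested with edgeR 4.0.16 in R 4.3.3 (filterByExpr, TMM factors, robust quasi-likelihood fit, Benjamini-Hochberg adjustment over all genes tested) within the groups of each comparison, and over all 16 libraries for the interaction. A gene was called at an adjusted p under 0.05 and a log2 fold change beyond 1, or for the interaction at an adjusted p under 0.05. Intervals are 95% from the fit's degrees of freedom. CPM used TMM factors over 16 libraries, correlations used log2 CPM with a prior count of 2, and exon lengths came from GENCODE on GRCm38.p6.

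The alternatives were DESeq2 1.42.0, 3 other scalings, no filter, a fit over 16 libraries, leaving out each library in turn, and leaving out together the libraries that stood apart (uninjured C57 replicate 4 and injured C57 replicate 1), to which, between uninjured strains and in the interaction, uninjured MRL replicate 4 was added from earlier work on these data, although its correlation with its group (0.932 to 0.941) was ordinary here. The lists without these libraries were added after seeing the data. Samples were grouped by the strain and time labels. Replicates are stated to be single tendons of separate animals, and numbers of injured libraries were given in accession order. By rule the text names all 10 members, at most 4 genes per pathway list, those with the smallest adjusted p among genes called in either injury response, and for each member the genes with the highest Pearson correlation. Further list genes were named after their values were seen, and are said to be so, and marker genes are named where they stand beside a result. The members and lists were chosen with earlier results of these data known. Of the listed symbols, Cemip2, Creb5 and Cnmd were not matched in the table. Cemip2 was listed also under its older symbol Tmem2, which was matched and tested, and was not called in either injury response. Neutrophil, endothelium and chondrocyte marker lists were read too: their summed shares of counts were at most 0.0141%, 0.022% and 3.15% in any library.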

Additional observations from a re-analysis of the deposited data

Results flagged for a closer look

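In the 4 injured MRL libraries, Has3 was at 1.67 CPM (38 counts) in replicate 3, while the other 3 libraries were at 0 to 0.181 CPM. The gap of that library to its nearest neighbour was 0.892 of the range of the group, above Dixon's critical value for 4 values. This was 1 of 40 sets of 4 values examined for the 10 genes, and chance marks about 1 in 20 such sets. No gene of the 10 had injury responses that differed between the strains in the interaction test, and the smallest adjusted p among them was 0.581.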

How the results depend on the processing

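Over the alternatives, 748 values of single members were recomputed. Of these 702 kept their direction and side of the thresholds, 41 turned sign, 4 became calls and 1 ceased to be one. The sign turned only for members that were not called, the largest of them in size being Tnfaip6 in the interaction (-0.91).

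Number of genes called. The C57 response, with 155 called genes, had 907 with DESeq2, 367 in the fit over 16 libraries, 867 without the libraries that stood apart, and 10 to 750 when 1 library was left out, the 750 without uninjured C57 replicate 4. The MRL response, with 1057, had 1818 with DESeq2 and 689 to 1260 when 1 library was left out. The interaction had 212 with DESeq2. The uninjured strains had 104 with DESeq2, 1 without a filter, 497 without the libraries labelled replicate 4 of both groups, of which the MRL one did not stand apart here, and 0 to 3 when 1 library was left out (2 without the C57 one alone and 3 without the MRL one alone), and the injured strains, with 502, had 1488 with DESeq2 and 231 to 481 when 1 library was left out. The cause of these differences was not tested. Members called in C57 numbered 2 with DESeq2 (Hyal1 at -1.39 and Tnfaip6 at 5.88), 1 in the fit over 16 libraries (Tnfaip6 at 5.86) and 1 without the libraries that stood apart (Tnfaip6 at 5.78). In MRL they numbered 1 to 2 when 1 library was left out, since Cd44 had 0.92 without injured MRL replicate 4.

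Signs that turned. With upper-quartile factors these were Has3 in C57 (-0.0038) and Cemip between uninjured strains (0.010). With total counts they were Has2 (0.037) and Hyal2 (0.039) in C57 and Has1 between injured strains (-0.044). Without a filter it was Cemip between uninjured strains (0.0085). Without the libraries that stood apart they were Has3 (-1.61) and Hyal2 (0.47) in C57. Without these and uninjured MRL replicate 4 they were Hyal2 (-0.43) and Prg4 (0.057) in the interaction, and without replicate 4 of both uninjured groups Cemip (0.12), Tnfaip6 (-0.095), Vcan (-0.15) and Prg4 (-0.29) between uninjured strains. Total-count scaling moved the median of all genes by over 0.1 in 3 comparisons, from -0.05 to 0.08 in C57, from -0.03 to -0.14 in the interaction and from -0.06 to -0.20 between injured strains.

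Leaving out 1 library at a time gave ranges on both sides of 0 in C57 for Has1 (-0.038 to 0.59), Has2 (-0.23 to 0.054), Has3 (-1.22 to 0.63) and Hyal2 (-0.35 to 0.26), and in MRL for Has1 (-0.24 to 0.072) and Hyal2 (-0.018 to 0.32). In the interaction they were Hyal2 (-0.19 to 0.42) and Tnfaip6 (-1.78 to 0.36). Between uninjured strains they were Cemip (-0.36 to 0.27), Vcan (-0.044 to 0.47) and Prg4 (-0.074 to 0.63), and between injured strains Has1 (-0.041 to 0.29), Has2 (-0.30 to 0.69), Hyal1 (-0.055 to 0.49), Tnfaip6 (-1.08 to 0.93) and Prg4 (-0.24 to 0.13).

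The uninjured groups carry replicate numbers, but same-numbered libraries did not deviate together (correlations of -0.26, 0.02, -0.10 and -0.23), so the numbers name libraries and pair nothing. With the replicate block 0 genes were called between uninjured strains, and 812 had an unadjusted p under 0.05. Injured libraries carry no shared numbers.

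With 4 libraries a group the intervals were wide, and for Has3 and Cemip the low counts limit what can be seen.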
